A study of Mus musculus with 3 samples.

Results

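Integrins and the proteins that tie them to the actin cytoskeleton were followed through lung mesenchymal stromal cells (LMSCs) of mice with mammary tumors. The members were 41 genes, taken by symbol from a table of 34742 genes, and were chosen as integrin subunits and classical focal adhesion proteins. They held 12 integrin α chains, 7 integrin β chains and 22 cytoplasmic proteins. All 41 symbols were in the table.

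The cells came from MMTV-PyMT mice (FVB/N-Tg (MMTV-PyVT) 634Mul/J), in which a mouse mammary tumor virus promoter drives the polyoma middle T antigen in mammary epithelium. Lung cells that stuck to plastic and were depleted of CD45+ cells had been expanded in culture. The series used here holds their RNA-seq at 3 stages, with 1 library each. These were A-LMSC, the A stage (adenoma, 7 weeks of age), PM-LMSC, the PM stage (pre-metastatic, 11 weeks) and M-LMSC, the M stage (metastatic, 13 weeks). All 3 groups carried the transgene, and no wild-type library was analysed here. The paper's methods list further libraries of these stages from another series, which were not analysed here either. With 1 library per stage, a difference between stages cannot be told apart from a difference between cultures or library preparations, and no test was possible. Intervals cover counting error only.

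Integrins are pairs of an α and a β chain that span the plasma membrane. Outside the cell the pair binds matrix, with the α chain setting much of the ligand choice. Inside, talin and kindlin bind the β tail and switch the receptor to its active form, and a layered plaque of adaptors, kinases and actin linkers then grows on it. In lung stroma these receptors hold fibroblasts and smooth muscle cells to fibronectin, collagen and laminin.

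The libraries held 13479898 counts at the A stage, 12594155 at PM and 14338909 at M. Levels are counts per 1000000 (CPM) after TMM scaling, an edgeR factor that sets the bulk of genes level. A gene was taken as measured in a pair when the higher library reached 1 CPM. Ratios are log2 of CPM + 1, and a gene was called higher or lower at 2-fold or more on that scale. Of the mesenchymal markers, 12 of 12 at the A stage, 11 at PM and 12 at M reached 1 CPM, with summed levels of 35846, 19532 and 6374 CPM, led by Col1a1, Col1a2 and Col3a1. The markers did not move one way. Those 3 collagens were lower in PM-LMSC than in A-LMSC, whereas Nes, Cd44 and Pdgfra were higher, and in M-LMSC against A-LMSC 4 of the 12 were higher and 5 were lower. Smooth muscle markers summed to 10617, 12107 and 8479.6 CPM, led by Acta2, Tagln and Des. Leukocyte markers summed to 104, 322 and 137 CPM, led by Lyz2 (51.7, 244 and 99.0 CPM), Csf1r and Itgb2, while Ptprc, which encodes the depleted antigen CD45, had 0, 3 and 9 counts. Epithelial markers, by contrast, summed to 36.3, 103 and 1398 CPM. Of 20 such markers, 6 reached 1 CPM at the A stage, 13 at PM and 20 at M, and 6 were at 0 in A-LMSC. In these bulk libraries more cells of a type and more RNA per cell cannot be told apart.

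The members took 1.59% of all counts at the A stage, 2.37% at PM and 1.65% at M. At least 1 CPM was reached by 33, 38 and 40 of the 41 members in the same order, and 40 reached it somewhere. The exception was Itgb8, a chain that binds latent TGF-β, with 3, 0 and 7 counts. Among those 40, 14 were highest at the A stage, 10 at PM and 16 at M. The members therefore did not move as a block, and each of the 10 roles held members that were highest in different libraries.

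**Figure D1:**
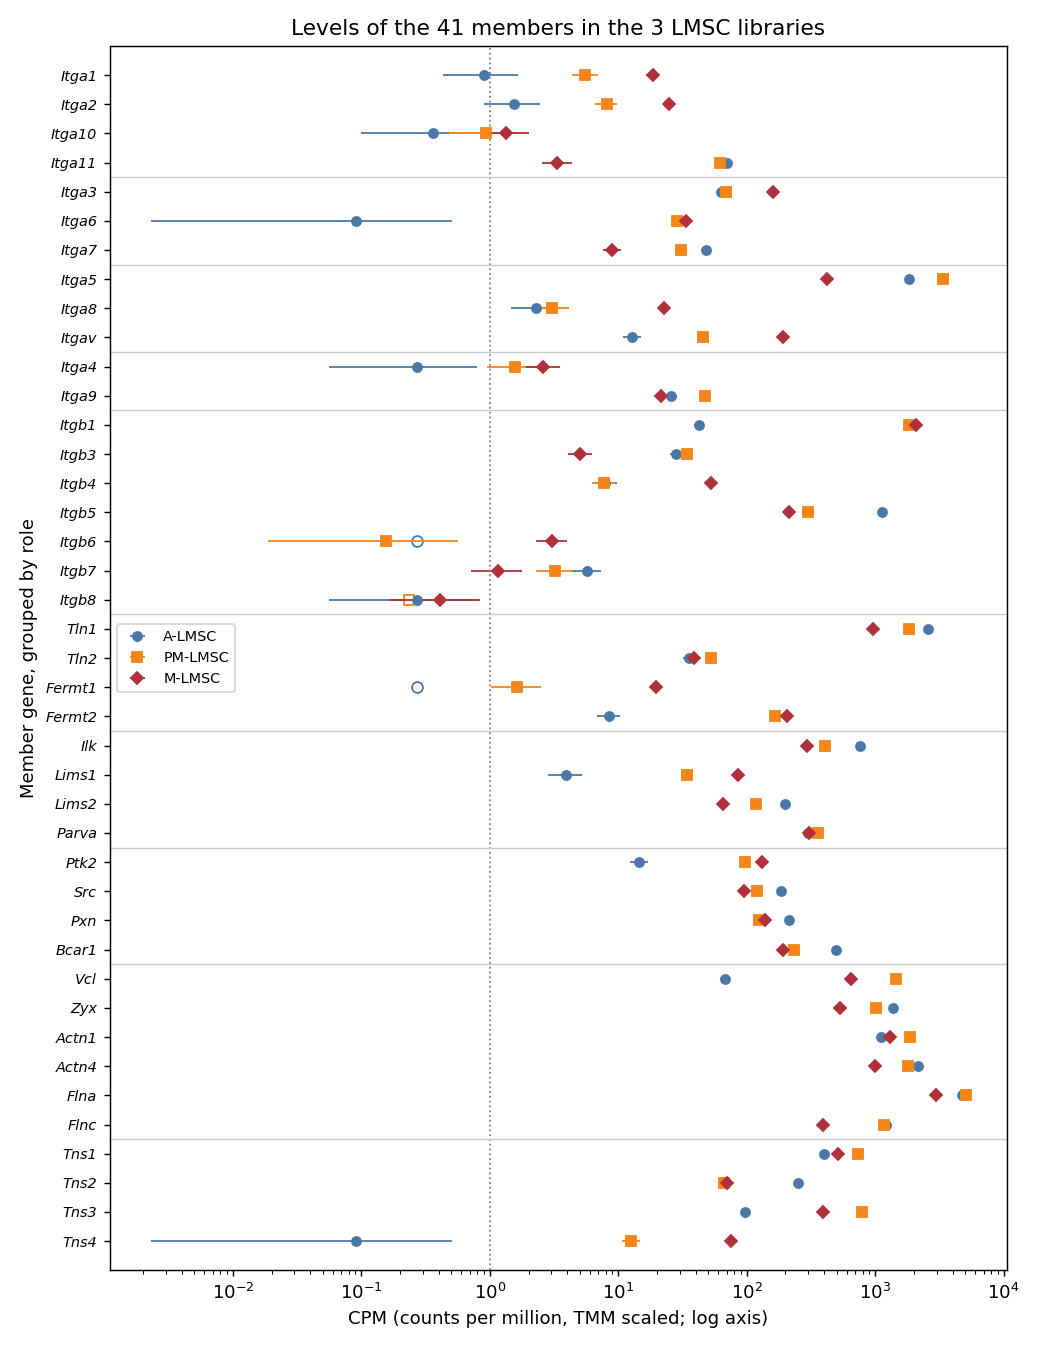
Level of each member in CPM (log axis) in A-LMSC (circles), PM-LMSC (squares) and M-LMSC (diamonds), with 95% Poisson intervals that cover counting error only; open symbols are counts of 0 drawn at the level of 3 counts, the dotted line marks 1 CPM, and grey lines part the roles. Itgb1, Vcl and Fermt2 lie far to the left in A-LMSC, and Itga11 and Itga5 lie to the left in M-LMSC.

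The β chains showed the clearest exchange. Itgb1, the partner of most matrix-binding α chains and the gene for CD29, a surface marker that the study's methods list for these cells, had 42.6 CPM at the A stage (95% interval 38.8 to 46.6), 1846 at PM and 2074 at M. It was 43.3-fold higher in PM-LMSC than in A-LMSC and 48.7-fold higher in M-LMSC than in A-LMSC. Itgb5, a chain that pairs with αv and binds vitronectin, went the other way, with 1119.7 CPM at the A stage, 298 at PM and 213 at M. It was 3.76-fold lower in PM-LMSC and 5.25-fold lower in M-LMSC, each against A-LMSC. All of these values are RNA levels. For the protein, the paper reports the same surface marker pattern, positive for CD29, in LMSCs of every stage, A-LMSC included. The low Itgb1 RNA level in A-LMSC therefore does not show that these cells lacked CD29. Protein levels were not tested here.

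Levels set per transcript length (FPKM) allow genes of unlike length to be compared. Itgb5 made up 94.7% of the summed β chain FPKM in A-LMSC and Itgb1 2.93%. In PM-LMSC the shares were 16.3% for Itgb5 and 82.2% for Itgb1, and in M-LMSC 11.0% and 87.3%. The FPKM ratio of Itgb1 to Itgb5 was thus 0.031 at the A stage, 5.05 at PM and 7.93 at M. Summed β chain FPKM was 210.1, 403 and 505 at the A, PM and M stages. FPKM takes no account of GC content, which is 57.0% for Itgb5 and 44.8% for Itgb1. This limit holds for every FPKM share and ratio given here. With the trend with GC content and length removed, as described below, the log2 ratio in PM-LMSC against A-LMSC went from -1.91 to -0.79 for Itgb5. For Itgb1 it went from 5.40 to 3.70.

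Talin binds a membrane-proximal NPXY motif in the cytoplasmic tails of both chains, and kindlin binds a related motif nearer the end of the tail. The NPXY codons of the chains differ in base composition and are shown for that reason, from GENCODE M21 coding transcripts (GRCm38), with capitals marking G or C at the third position of a codon. The coordinates run from the lowest to the highest base.
Itgb1, membrane-proximal, chr8:128732029-128732040 (+ strand): aatcctatttaC
Itgb1, membrane-distal, chr8:128732065-128732076 (+ strand): aatccGaaGtat
Itgb5, chr16:33948663-33948674 (+ strand): aaCccCctGtaC
Itgb3, chr11:104667086-104667097 (+ strand): aaCccGctGtat
The printed codons of Itgb5 ended in G or C at 4 of 4 positions, and those of the first Itgb1 motif at 1 of 4. Over the whole coding sequence, 68.8% of Itgb5 codons ended in G or C, against 41.1% for Itgb1. Itgb3 stood at 68.4%. Across the β chains the share ran from 41.1% for Itgb1 to 73.2% for Itgb4. Itgb4, despite that share, was higher in M-LMSC than in A-LMSC, at a log2 ratio of 2.59.

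Itgb3, which pairs with αv and binds RGD sequences, had 28.2 CPM at the A stage, 34.1 at PM and 5.05 at M. It was 5.58-fold lower in M-LMSC than in A-LMSC. Itgb7, best known on lymphocytes, had 5.71, 3.20 and 1.16 CPM in the same order, from 63, 41 and 20 counts. Itgb4, the hemidesmosome chain that pairs with α6 on laminin, showed 7.89 CPM at the A stage, 7.73 at PM and 52.4 at M. Itgb6, an epithelial chain that activates latent TGF-β, had 0, 2 and 53 counts. Its level in M-LMSC was 19.7-fold that in PM-LMSC (95% interval 5.19 to 167) and at least 11.3-fold that in A-LMSC, set against 3 counts. Itgb4 and Itgb6 were thus highest in M-LMSC, the library in which epithelial markers summed to 1398 CPM. The part of epithelial cells in these values was not tested.

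**Figure D2:**
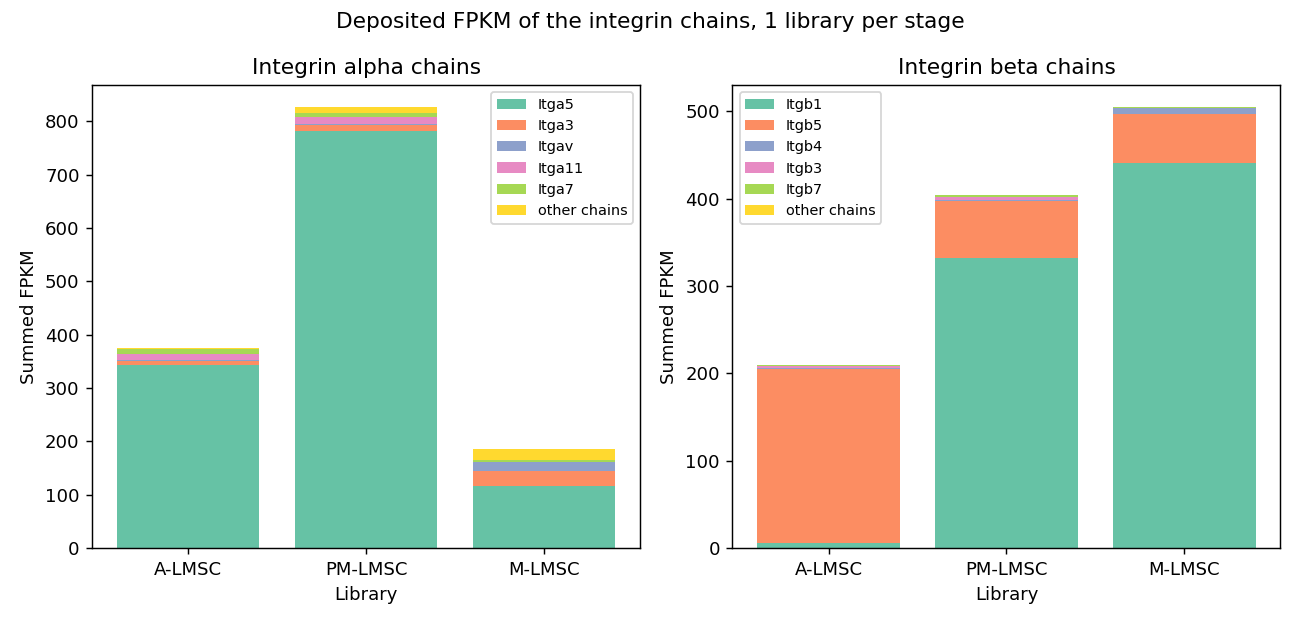
Deposited FPKM of the integrin α chains (left) and β chains (right), stacked for A-LMSC, PM-LMSC and M-LMSC, with the 5 chains of highest FPKM shown and the rest summed as other chains; bars start at 0 and have no error bars because each stage has 1 library. Itga5 fills most of each α bar, and Itgb5 gives way to Itgb1 in the β bars.

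Among the α chains, Itga5, which with β1 forms the classical fibronectin receptor, had by far the highest FPKM in each library, at 344 at the A stage, 782 at PM and 116 at M. It accounted for 91.5%, 94.6% and 62.7% of the summed α chain FPKM. In CPM it stood at 1842, 3368 and 423. Itga5 was therefore highest in PM-LMSC and lowest in M-LMSC, 7.96-fold below PM-LMSC and 4.35-fold below A-LMSC. Summed α chain FPKM was 376, 826 and 185 at the A, PM and M stages.

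The other RGD-binding α chains were highest in M-LMSC. Itgav, which pairs with several β chains, β3, β5, β6 and β8 among them, had 12.8 CPM at the A stage, 45.3 at PM and 193 at M. Its share of α chain FPKM was 9.06% in M-LMSC, and the FPKM ratio of Itgav to Itga5 was 0.0022 at the A stage, 0.00427 at PM and 0.145 at M. Itga8, an α chain of smooth muscle and fibroblasts that binds nephronectin, had 2.27, 3.05 and 22.6 CPM at the A, PM and M stages.

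The collagen receptors also split. Itga11, the fibroblast receptor for fibrillar collagen, had 69.8 CPM at the A stage, 62.3 at PM and 3.36 at M. It was 20.7-fold lower in M-LMSC than in A-LMSC and 18.5-fold lower than in PM-LMSC, the largest reduction of any member in either pair. Itga1 had 0.906, 5.55 and 18.5 CPM, and Itga2 had 1.54, 8.12 and 24.8 CPM, at the A, PM and M stages. Both chains bind collagen through an inserted domain, and both were highest in M-LMSC. Itga10, a chain best known in cartilage, stayed near the detection limit with 4, 12 and 23 counts. Exons of Gm42957 on the same strand (0, 0 and 2 counts) covered 33.53% of its exon bases, so its reads are uncertain.

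Of the laminin receptors, Itga6 had 1 count at the A stage, 364 at PM and 576 at M. This was 314-fold higher in PM-LMSC (95% interval 56.0 to 12425) and 369-fold higher in M-LMSC (65.9 to 14587) than in A-LMSC. Itga3, a laminin receptor of epithelia and many other cells, had 63.0 CPM at the A stage, 68.5 at PM and 161 at M. Its share of α chain FPKM was 2.03% at the A stage, 1.25% at PM and 15.4% at M. Itga7, the laminin receptor of muscle, ran in the opposite order with 48.4, 30.8 and 8.93 CPM. In M-LMSC it was 5.42-fold below A-LMSC.

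The 2 remaining α chains were less abundant. Itga4, which pairs with β1 or β7 and binds VCAM-1 and fibronectin, had 3, 20 and 45 counts at the A, PM and M stages. Itga9, its closest relative, had 25.7, 46.9 and 21.4 CPM. It was highest in PM-LMSC, 1.83-fold above A-LMSC.

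The proteins that activate integrins at the β tail changed in their balance. Tln1 encodes talin 1, the main talin outside muscle and brain, and had 2591 CPM at the A stage, 1829 at PM and 962 at M. Its relative Tln2 had 35.5, 53.0 and 38.7 CPM and stayed far lower per length, at an FPKM ratio to Tln1 of 0.0124, 0.0262 and 0.0364. Fermt2 encodes kindlin-2, the kindlin of mesenchymal cells, and had 8.43 CPM at the A stage, 166 at PM and 204 at M. It was 19.7-fold and 24.2-fold higher at the PM and M stages than at A. Fermt1, the epithelial kindlin-1, had 0, 21 and 340 counts. In M-LMSC its level was 12.0-fold that in PM-LMSC and at least 72.5-fold that in A-LMSC, set against 3 counts.

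Ilk, Lims1 or Lims2, and Parva encode the kinase-like ILK, PINCH and α-parvin proteins, which form a ternary complex on the β tail. Ilk had 762, 406 and 296 CPM at the A, PM and M stages, but 76.75% of its exon bases lay opposite exons of Taf10 (1847, 346 and 1134 counts), and without a stated strand setting its reads are uncertain. Lims2 (PINCH2) had 197, 119 and 65.2 CPM. Lims1 (PINCH1) had 3.90, 34.0 and 85.4 CPM. The FPKM ratio of Lims2 to Lims1 was 185 at the A stage, 12.8 at PM and 2.79 at M. Parva had 299.7, 361 and 305 CPM, and its libraries lay within 1.20-fold of each other.

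Of the kinases and docking proteins, Ptk2, the gene of focal adhesion kinase (FAK), ran opposite to its partners in CPM. It had 14.6 CPM at the A stage, 96.8 at PM and 131 at M, and was 6.63-fold and 9.0-fold higher at the PM and M stages than at A. Src, the kinase that FAK recruits, had 184, 119.7 and 95.5 CPM. Pxn (paxillin) had 213, 124 and 138 CPM, and Bcar1 (p130Cas), a substrate of both kinases, had 492, 233 and 191 CPM. These 3 partners were highest in A-LMSC in CPM, by 1.53-fold to 2.58-fold. With the trend with GC content and length removed, as described below, that opposition was gone. The log2 ratios in PM-LMSC against A-LMSC were then 0.88 for Ptk2, 0.54 for Src, 0.30 for Pxn and 0.33 for Bcar1. In M-LMSC against A-LMSC they were 1.19, 0.43, 0.69 and 0.23.

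Vcl encodes vinculin, which joins talin to actin under tension, and was the actin linker that differed most. It had 67.1 CPM at the A stage (95% interval 62.3 to 72.1), 1444 at PM and 649 at M. This was 21.5-fold higher in PM-LMSC and 9.68-fold higher in M-LMSC than in A-LMSC. Exons of Ap3m1 on the opposite strand (36, 51 and 678 counts) covered 25.52% of Vcl exon bases. The remaining linkers were abundant everywhere. Flna, the filamin that bundles cortical actin, had 4719.6, 5047 and 2969 CPM, and the muscle-type Flnc had 1206, 1168 and 395 CPM. The crosslinker Actn1 had 1107, 1851 and 1314 CPM, and Actn4 had 2134, 1785 and 997 CPM. Zyx (zyxin), which marks strained stress fibers, had 1366, 1021 and 533 CPM.

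Tensins bind β tails and actin in the elongated adhesions under the cell body. Tns3 had 96.8 CPM at the A stage, 792 at PM and 391 at M, while Tns2 had 252, 66.2 and 70.1 CPM. The FPKM ratio of Tns3 to Tns2 was 0.176, 5.47 and 2.55 at the A, PM and M stages. Tns1 had 399.9, 729.6 and 513 CPM. Tns4, a short tensin without the actin-binding part, had 1, 161 and 1306 counts, a level 139-fold higher in PM-LMSC (24.6 to 5514) and 836-fold higher in M-LMSC (150 to 33043) than in A-LMSC.

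In PM-LMSC against A-LMSC, 38 members were measured, 13 were at least 2-fold higher and 3 were at least 2-fold lower. Of all genes measured, 35.0% were higher and 25% were lower, while the members stood at 34.2% and 7.89%. The share higher was thus near that of all genes. Higher were Itgb1, Itga6, Itgav, Itga1, Itga2, Itga4, Fermt1, Fermt2, Lims1, Ptk2, Vcl, Tns3 and Tns4. Lower were Itgb5, Tns2 and Bcar1. The members' median log2 ratio was 0.29, beside 0.19 for all genes.

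In M-LMSC against A-LMSC, 17 of 40 measured members were higher and 14 were lower. The background was 41% higher and 27.7% lower, beside 42.5% and 35.0% of the members, so neither share lay far from it. Higher were Itgb1, Itgb4, Itgb6, Itga1, Itga2, Itga3, Itga4, Itga6, Itga8, Itgav, Fermt1, Fermt2, Lims1, Ptk2, Vcl, Tns3 and Tns4. Lower were Itga5, Itga7, Itga11, Itgb3, Itgb5, Itgb7, Tln1, Ilk, Lims2, Bcar1, Zyx, Actn4, Flnc and Tns2. The median log2 ratio was 0.18, and that of all genes was 0.34. Both comparisons share the A-LMSC library.

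In M-LMSC against PM-LMSC, 10 of 40 measured members were higher and 8 were lower, or 25% and 20.0% of them. Of all genes, 17.3% were higher and 7.85% were lower. Higher were Itga1, Itga2, Itga3, Itga8, Itgav, Itgb4, Itgb6, Fermt1, Lims1 and Tns4. Lower were Itga5, Itga7, Itga9, Itga11, Itgb3, Vcl, Tns3 and Flnc. The median log2 ratio of the members was -0.31, beside 0.03 for all genes. This pair held the fibronectin and fibrillar collagen receptors Itga5 and Itga11 on its lower side. Its upper side held the epithelial-type Itgb4, Itgb6 and Fermt1. The collagen receptors Itga1 and Itga2 and the RGD-binding Itgav and Itga8 were on that upper side as well. Whether the sides part by cell type or ligand was not tested.

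**Figure D3:**
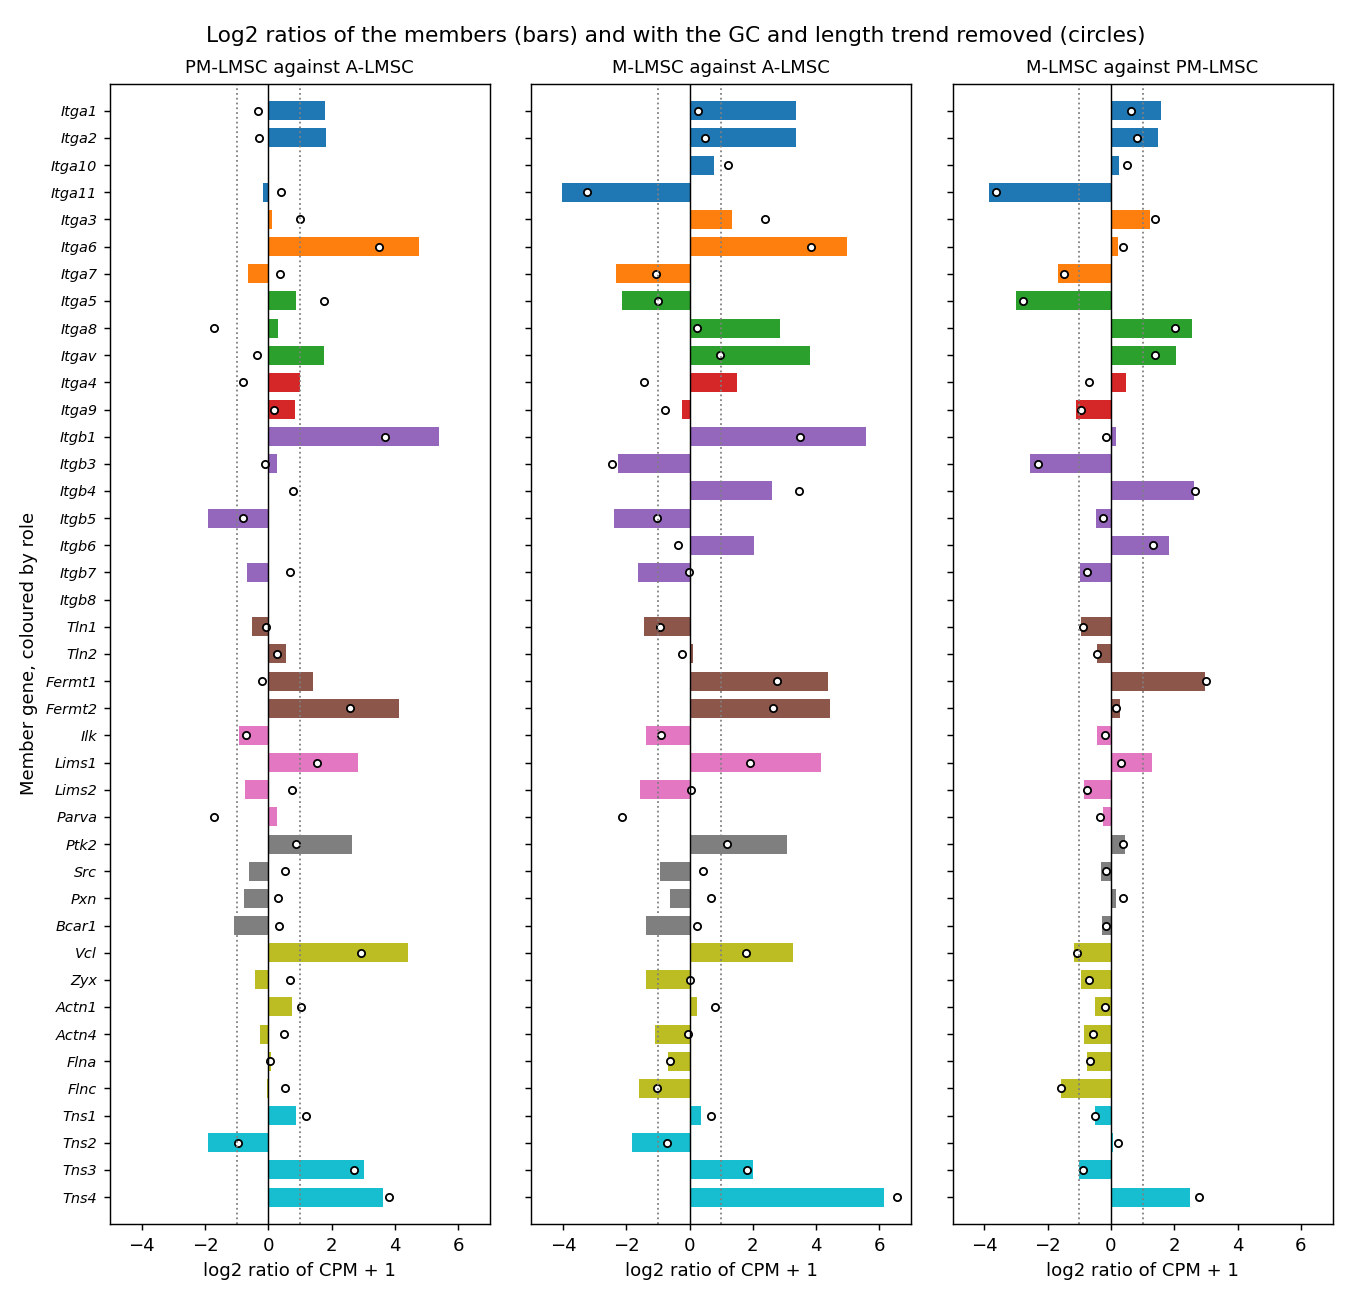
Log2 ratio of CPM + 1 for each measured member in PM-LMSC against A-LMSC, M-LMSC against A-LMSC and M-LMSC against PM-LMSC (bars, coloured by role), with circles for the ratio after the trend with GC content and length was removed and dotted lines at 2-fold. Itgb1, Vcl and Fermt2 keep long bars and high circles to A-LMSC, whereas the circles of Itga1, Itga2 and Itgav fall near 0 in PM-LMSC against A-LMSC.

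The ratios to A-LMSC followed the GC content of the transcript. Across 38 members, Spearman's rho of the log2 ratio with GC content was -0.73 in PM-LMSC against A-LMSC, and across 12105 protein-coding genes it was -0.63. In M-LMSC against A-LMSC the values were -0.67 over 40 members and -0.71 over 12606 genes. In M-LMSC against PM-LMSC they were weaker, at -0.43 over 40 members and -0.39 over 12566 genes. All of these points share the same pair of libraries. Of the 8 measured members under 45% GC, 8 were higher in M-LMSC than in A-LMSC and 0 were lower. Of 3108 protein-coding genes under 45% GC, 2529 were higher and 44 were lower. Of the 17 members at 55% GC or more, 2 were higher and 12 were lower. Of 3008 protein-coding genes at 55% GC or more, 132 were higher and 2099 were lower. In M-LMSC against A-LMSC the members thus followed the split of all protein-coding genes. In PM-LMSC against A-LMSC, 6 of 7 members under 45% GC were higher, beside 1666 of 2756 protein-coding genes. Of the 17 members at 55% GC or more, only 3 were lower there, beside 1891 of 2971 genes. The GC-rich members did not follow the split in that pair. Itgb1 has 44.8% GC, Fermt2 45.9%, Lims1 40.7% and Itgav 43.5%, whereas Itgb5 has 57.0%, Itga5 57.3%, Tns2 58.8% and Lims2 57.8%. Among these named genes, those on opposite sides in the ratio of M-LMSC to A-LMSC thus differed in base composition. Some of them shared a role, as Itgb1 and Itgb5 or Lims1 and Lims2 do. Other members did not part this way. The laminin receptors Itga3 (57.9% GC) and Itga7 (57.8% GC) had log2 ratios of 1.34 and -2.31 for that pair. Itgb4 (60.0% GC) was at 2.59, whereas Itgb3 (52.1% GC) was at -2.27. The part of base composition in each ratio was not tested.

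**Figure D4:**
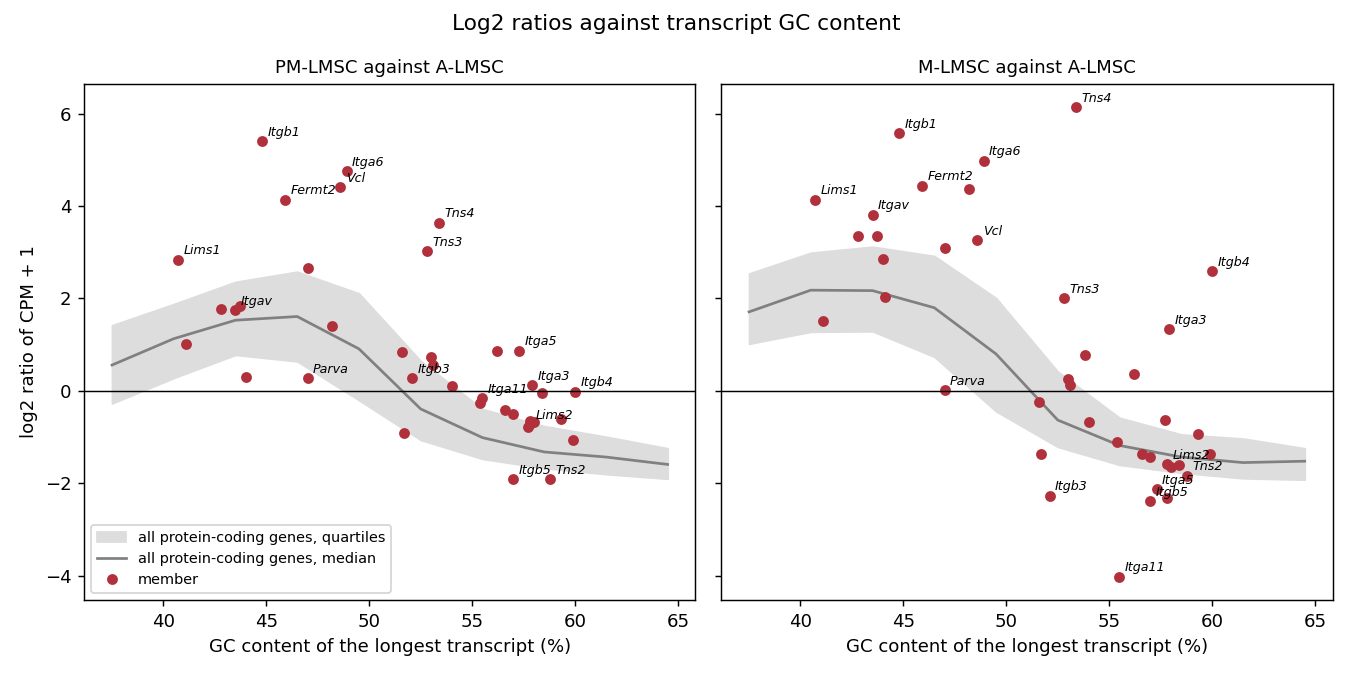
Log2 ratio of CPM + 1 against the GC content of the longest transcript (%), for members (red points) and for all protein-coding genes (grey line, median; grey band, quartiles, in bins of 3 percentage points), in PM-LMSC against A-LMSC and M-LMSC against A-LMSC. Itgb1, Vcl and Itga6 lie above the band on both panels, while Itga1 and Itga2 lie within it on the left panel.

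With the trend with GC content and length subtracted from each ratio, 10 of 38 members were higher and 2 were lower in PM-LMSC than in A-LMSC. These were 26.3% and 5.26% of them, beside 18.9% and 17.1% of all genes. Those higher with and without the trend numbered 7. These were Itgb1 (3.70 after removal), Itga6 (3.50), Vcl (2.92), Fermt2 (2.58), Tns3 (2.71), Tns4 (3.82) and Lims1 (1.55). Itga5 (1.75), Tns1 (1.20) and Actn1 (1.03) were called higher only after removal. Itga8 (-1.70) and Parva (-1.70) were called lower only then. Calls of higher level were lost for Ptk2 (0.88), Fermt1 (-0.20), Itga1 (-0.31), Itga2 (-0.28), Itgav (-0.36) and Itga4 (-0.78). The full trend was subtracted also from low genes, whose ratios the added 1 had shrunk. The changed calls of Fermt1, Itga1, Itga2, Itga4 and Itga8 are therefore uncertain. None of the 3 lower calls was kept, with Itgb5 at -0.79, Tns2 at -0.95 and Bcar1 at 0.33.

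In M-LMSC against A-LMSC, 12 of 40 members were higher and 8 were lower after removal. These were 30.0% and 20.0% of them, beside 18.9% and 18.8% of all genes. The 11 higher either way were Itgb1 (3.48), Itgb4 (3.47), Itga6 (3.84), Itga3 (2.39), Fermt1 (2.76), Fermt2 (2.65), Lims1 (1.90), Ptk2 (1.19), Vcl (1.79), Tns3 (1.81) and Tns4 (6.55). The 6 lower either way were Itga11 (-3.23), Itgb3 (-2.44), Itga7 (-1.07), Flnc (-1.04), Itgb5 (-1.02) and Itga5 (-1.01). The last 4 of these lay just past 2-fold. Called only after removal were Itga10 (1.23) on the higher side and Parva (-2.13) on the lower side, and Itga4 turned from a higher to a lower call (-1.45). Itgav (0.97), Itga8 (0.23), Itgb6 (-0.38) and the collagen receptors Itga1 (0.27) and Itga2 (0.50) no longer passed 2-fold. The added 1 shrinks the ratios of low genes, yet the full trend was subtracted from them. Lost or turned calls of low genes, such as Itga4, Itgb6, Itga1 and Itga2, are therefore uncertain. Without the added 1, Itga4 was 9.6-fold higher in M-LMSC than in A-LMSC, and Itgb6 at least 11.3-fold higher. The lower calls of Itgb7, Tln1, Ilk, Lims2, Bcar1, Zyx, Actn4 and Tns2 were also lost, with values between -0.93 for Tln1 and 0.23 for Bcar1.

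In M-LMSC against PM-LMSC, 7 members were higher and 6 were lower after removal, beside 10.9% and 8.91% of all genes, and all 13 had been called without it. The 13 members were Itga3, Itga8, Itgav, Itgb4, Itgb6, Fermt1 and Tns4 on the higher side, and Itga5, Itga7, Itga11, Itgb3, Vcl and Flnc on the lower side. Itga11 was at -3.63, Itga5 at -2.78 and Fermt1 at 3.02. Tns4 was at 2.77.

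Fermt1, Itgb4, Itgb6 and Tns4 each had their highest level in M-LMSC, as did 20 epithelial markers in sum. The keratins Krt7, Krt8 and Krt18, the most abundant of these markers, had 367, 291 and 238 CPM in M-LMSC. In A-LMSC the same keratins had 5.26, 2.08 and 4.17 CPM. Itga6 stood at 28.4 CPM in PM-LMSC, where the epithelial markers summed to 103 CPM, and at 33.4 CPM in M-LMSC. Itgb1 and Fermt2 were also high in PM-LMSC. Of 13 epithelial markers measured in PM-LMSC against A-LMSC, 9 were higher (69.2%, beside 35.0% of all genes). Tns4 likewise had 161 counts in PM-LMSC and 1 in A-LMSC. The part of epithelial cells in the members' levels was not tested.

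Promoter windows of 250 bases before to 50 after the start (RefSeq, GRCm38.p6) were found for 31 of the 41 members. The SP1 motif GGGCGG was in 21 of these 31 (67.7%), beside 38.2% of 27025 genes, and the median GC content of 38 member windows was 65.85%, beside 52.7% over all 32851 windows. The TEAD motif GGAATG was in 6 (19.4%, beside 16.6%), and the AP-1 motif TGANTCA in 4 (12.9%, beside 9.0%). The CArG box of serum response factor was in 3 (9.7%, beside 1.8%), namely Vcl, Fermt2 and Itgb6. Motifs were searched on both strands, and a match is a description of the letters. The promoters of Itgb1 and Vcl are shown because these genes had the largest gains in PM-LMSC over A-LMSC among members with over 100 counts in each library. Capitals mark the searched motifs.
Itgb1 promoter, chr8:128685404-128685703 (+ strand): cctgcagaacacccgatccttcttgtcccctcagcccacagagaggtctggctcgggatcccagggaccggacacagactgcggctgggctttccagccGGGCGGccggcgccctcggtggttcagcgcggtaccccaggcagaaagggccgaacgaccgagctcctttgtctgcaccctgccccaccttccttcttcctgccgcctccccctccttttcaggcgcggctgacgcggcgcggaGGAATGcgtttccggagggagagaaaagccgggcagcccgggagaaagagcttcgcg
Vcl promoter, chr14:20929148-20929447 (+ strand): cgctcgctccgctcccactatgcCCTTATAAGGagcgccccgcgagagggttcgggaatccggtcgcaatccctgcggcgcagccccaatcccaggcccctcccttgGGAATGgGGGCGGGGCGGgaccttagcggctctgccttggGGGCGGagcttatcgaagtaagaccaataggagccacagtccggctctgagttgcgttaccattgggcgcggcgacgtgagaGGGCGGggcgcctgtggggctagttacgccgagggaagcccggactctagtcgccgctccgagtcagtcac
The Vcl window held 1 CArG box, 1 TEAD motif and 4 SP1 motifs, some of them overlapping, and the Itgb1 window held 1 TEAD motif and 1 SP1 motif. Both windows were GC-rich, at 67.3% for Itgb1 and 66.7% for Vcl, although the transcripts of both genes lay below 50% GC.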

How the data were processed

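RNA-seq in the series used here covered cultured LMSCs of 3 stages, with 1 library each. The authors deposited 1 table with raw counts per gene and FPKM values (fragments scaled by transcript length and library size) per library. TopHat2 2.0.9 and the mm10 build are credited to the submitters' processing notes, while the counter, its annotation and its strand setting were not given in the sources used here. Of 34748 lines, 6 incomplete lines (3 genes) were left out, and 34742 genes were analysed. Symbols shared by several genes were kept for the lowest Ensembl number, and 65 genes went by identifier.

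Counts were scaled by TMM (edgeR 4.0.16 in R 4.3.3) to CPM. Ratios were taken as log2(CPM + 1) for genes that reached 1 CPM in either library of the pair, which understates changes of low genes, and 2-fold was the limit for a call. Counts carry exact Poisson intervals and ratios exact conditional intervals (95%, without the added 1, scipy 1.17.1). A count of 0 was replaced by 3 counts per library for bounds. A lowess trend (span 0.3, statsmodels 0.14.6) of the ratio on GC content and then length of the longest GENCODE M21 transcript, fitted on protein-coding genes, was subtracted in a second measure. This trend was subtracted in full also from low genes, whose ratios the added 1 shrinks, so their calls after removal are uncertain. The subtraction was tried on simulated counts with a straight GC trend, no length trend and few changed genes. The trend in these data bends and many genes differ, so that trial does not show how well the removal works here. Chain shares use the deposited FPKM and are not corrected for GC content. Integrin motif codons were read from the principal coding transcript, and promoters from RefSeq. No test between stages was possible. The members and lists were chosen with earlier results of these data known. All 41 members are described; of each companion list, the 4 top and 4 bottom genes by log2 ratio of M-LMSC to A-LMSC, with 1 CPM somewhere, are named, and of marker lists the 3 most abundant. One gene that this rule picks among the ligands is not reported here. Plain CPM, median-of-ratios (DESeq2 1.42.0) and upper-quartile scaling, FPKM, other pseudocounts and minimums, and centring on the median of all genes (added after seeing the data) were tried as alternatives.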

Additional observations from a re-analysis of the deposited data

How the results depend on the processing

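With 1 library per stage, no library could be left out, and no paired analysis was possible because each group holds 1 sample. Pseudocounts, minimums, median-of-ratios and upper-quartile scaling kept each count of members within 1.5 times. Members lower in M-LMSC than in A-LMSC numbered 14, but 9 with plain CPM, 8 with FPKM and 8 after removal of the GC and length trend. Those lower in M-LMSC than in PM-LMSC numbered 8, but 5 with plain CPM and 5 with FPKM. Plain CPM shifted the median log2 ratio of all genes to 0.47, 0.83 and 0.26 in PM-LMSC against A-LMSC, M-LMSC against A-LMSC and M-LMSC against PM-LMSC, where TMM gave 0.19, 0.34 and 0.03. The share of calls that were higher was then 69.9%, 77.6% and 80.6%, beside 58.3%, 59.6% and 68.8%. The members' median in M-LMSC against A-LMSC was 0.18, but -0.15 centred on all genes and -0.01 with median-of-ratios scaling. Removing the trend reversed 11 of 118 single ratios, the only alternative to reverse any. In PM-LMSC against A-LMSC these were Itga1 (-0.31), Itga2 (-0.28), Itgav (-0.36), Itga4 (-0.78), Fermt1 (-0.20) and Bcar1 (0.33). In M-LMSC against A-LMSC they were Itga4 (-1.45), Itgb6 (-0.38), Lims2 (0.04), Bcar1 (0.23) and Zyx (0.01). By counts over GENCODE length, Itga5 took 90.2% of the α chains at the A stage, 93.1% at PM and 53.4% at M. Itgb1 took 83.0% of the β chains in PM-LMSC and 87.8% in M-LMSC, and Itgb5 15.6% and 10.5%. Depth limits Itga6, Itgb6, Itgb8, Fermt1 and Tns4 in A-LMSC, where 3 counts correspond to 0.272 CPM.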

Other observations

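Of 35 genes of integrin ligands measured in M-LMSC against A-LMSC, 16 were at least 2-fold higher and 12 were at least 2-fold lower, with a median log2 ratio of 0.26. These were 45.7% and 34.3% of them, near the 41% and 27.7% of all genes. After removal of the GC and length trend, 11 of the 35 were higher and 7 were lower, beside 18.9% and 18.8% of all genes, and the median was 0.03. Among the highest were Lama3 and Lamb3, laminin chains of epithelial basement membranes, and Cdh1, the gene of E-cadherin and itself an epithelial marker. Lama3 had 0, 28 and 595 counts at the A, PM and M stages, and Lamb3 had 33, 57 and 652. Cdh1 had 0.453, 5.62 and 63.5 CPM. The laminin chains did not all move one way, since Lamb2 was lower (-1.66). Lowest were Col3a1 (log2 ratio -3.29), Col1a1 (-3.18), Col1a2 (-3.15) and Col4a2 (-2.56). Col1a1 had 16401, 7267 and 1815 CPM at the A, PM and M stages, so fibrillar collagen and its receptor Itga11 were both lowest in M-LMSC. In M-LMSC against PM-LMSC, 18 of 35 ligands were lower and 7 were higher, or 51.4% and 20.0% of them, beside 7.85% and 17.3% of all genes. Fn1, the ligand of Itga5, had 3056, 7267 and 2653 CPM and was, like Itga5, highest in PM-LMSC. Fn1 and Lamb2 were chosen after their values were seen.

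A further 62 focal adhesion genes held 30 higher and 14 lower of 59 measured in M-LMSC against A-LMSC, with a median log2 ratio of 1.38. These were 50.8% and 23.7% of them, beside 41% and 27.7% of all genes. After removal of the GC and length trend they held 15 higher and 6 lower, or 25.4% and 10.2%, beside 18.9% and 18.8% of all genes, and their median was 0.36. Highest were the p130Cas relative Nedd9 (4.64), Ppfibp1 (4.64), the adaptor Crkl (3.78) and Pdlim5 (3.71), at 2.65, 2.26, 2.28 and 1.26 with the trend removed. Lowest were Actn3 (-2.59), Git1 (-2.06), the actin polymerase Vasp (-1.74) and Sorbs3 (-1.62), at -1.12, -0.62, -0.10 and -0.08.

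Integrins of leukocytes and platelets stayed low. Their 7 genes summed to 22.8 CPM at the A stage, 29.6 at PM and 18.3 at M. Itgam had 0, 48 and 72 counts, Itgax 11, 69 and 51, Itgal 5, 21 and 11, Itgb2 183, 207 and 148, and Itga2b 52, 25 and 33.

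Endothelial markers summed to 16.6, 39.4 and 9.46 CPM at the A, PM and M stages, led by Esam, Kdr and Cdh5. Mesothelial markers summed to 32.4, 91.4 and 117 CPM, led by Msln, Upk1b and Wt1. Msln alone had 50, 134 and 1284 counts, while Upk1b, Wt1 and Lrrn4, or 3 of these 6 markers, were lower in M-LMSC than in PM-LMSC.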
